A study of Mus musculus with 2 samples.

Results

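The peaks described here lay away from promoters in mouse spleen, in sequence that the genome file marks as repetitive, and were called in only 1 of 2 libraries. They were chosen by 4 criteria applied to the peaks of the 50 µL reaction system library: an autosomal position, more than 3 kb from every GENCODE vM21 transcription start site (TSS), no overlap of 1 base or more with a peak of the library made without gradient centrifugation, and more than 50% of the peak's bases in lower case in the GRCm38 (mm10) genome. These criteria selected 10029 of 89382 peaks of that library, and of 114725 peaks in both lists together. They are called repeat-derived peaks below. The other 33336 peaks that met the first 3 criteria, with 50% or less of their bases in lower case, served as the comparison. The selection used the peak positions themselves, so the overlap and the masked share describe the selection and are not results.

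Both libraries were scFFPE-ATAC libraries, a split-and-pool barcoded transposase assay of open chromatin in nuclei from formalin-fixed paraffin-embedded (FFPE) tissue, from the spleens of young adult C57BL/6J mice of both sexes, according to the methods, and each was deposited as 1 list of peaks over all cells. One library skipped the density gradient that separates nuclei from debris, and the other had the smaller tagmentation volume of 50 µL. Whether the 50 µL nuclei had passed the gradient is not stated by the labels, so gradient, volume and library cannot be told apart. With 1 library per condition no significance test was possible, the depth is unknown, and the exact binomial intervals and the order-statistic intervals of medians below (95%) cover counting error over peaks only. Spleen is a lymphoid and myeloid organ. In the marker lists, a 50 µL peak within 1 kb of a TSS was present at 23 of 24 autosomal B cell genes. It was present at 23 of 26 T cell genes, 18 of 26 myeloid genes and 2 of 20 neuronal genes. Across all autosomal protein-coding genes it was present at 12038 of 20807. Of all autosomal 50 µL peaks, 73.6% (64261 of 87358) had no overlap with the other list, which was shorter, with 24863 autosomal peaks.

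Repeats of the mouse genome are of several kinds. Long interspersed elements of the L1 family copy themselves through RNA and encode an endonuclease and a reverse transcriptase in their second open frame. Short interspersed elements use that machinery, and among them B1 descends from 7SL RNA and others from tRNA, so that both may carry the internal promoter of RNA polymerase III, with its B box. Tandem repeats of short units, such as AC dinucleotides, arise by slippage during replication. Repeats can also carry binding sites of transcription factors, and copies that are nearly identical make short reads hard to place.

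The sequences below show the main kinds of repeat-derived peak, each as up to 200 bases around the summit on the forward strand of GRCm38. The first is the peak with the most near-copies among the other repeat-derived peaks. It lies in an intron of Rasgrf1, and its capitals, here the whole stretch, mark the match to an L1-like copy described further on:
Rasgrf1 intron peak chr9:89934081-89934280: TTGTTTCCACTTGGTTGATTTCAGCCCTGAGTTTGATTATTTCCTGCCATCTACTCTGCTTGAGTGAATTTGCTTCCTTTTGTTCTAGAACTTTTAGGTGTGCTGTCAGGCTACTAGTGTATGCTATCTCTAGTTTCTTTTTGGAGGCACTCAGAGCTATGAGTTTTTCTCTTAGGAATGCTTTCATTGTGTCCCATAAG
The second had the largest set of near-copies once the first peak and its near-copies were set aside. It lies 6090 bases from the nearest TSS, that of Ddx10. Its capitals mark 137 bases that matched, with 91.3% identity, the B1_Mus2 copy that RefSeq annotates on chromosome 7, which is printed after it:
Ddx10-side peak chr9:53254143-53254342: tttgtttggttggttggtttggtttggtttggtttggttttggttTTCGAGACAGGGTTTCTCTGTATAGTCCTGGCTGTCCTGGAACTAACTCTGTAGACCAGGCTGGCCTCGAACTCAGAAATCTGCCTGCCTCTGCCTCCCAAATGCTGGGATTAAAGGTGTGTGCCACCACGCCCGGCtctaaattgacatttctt
B1_Mus2 copy chr7:103823699-103823836: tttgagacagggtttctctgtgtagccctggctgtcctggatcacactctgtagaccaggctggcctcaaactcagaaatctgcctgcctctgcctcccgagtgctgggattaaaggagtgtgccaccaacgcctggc
The third had the next largest set, counted in the same way, and carries the B box letters GTTCNANNC, in capitals. No reference for its family was at hand, and it is left unnamed:
Unnamed repeat peak chr8:61426894-61427093: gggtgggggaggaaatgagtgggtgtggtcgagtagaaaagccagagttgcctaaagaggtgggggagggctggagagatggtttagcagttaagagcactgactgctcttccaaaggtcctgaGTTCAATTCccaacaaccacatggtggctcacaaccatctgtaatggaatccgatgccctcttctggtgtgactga
The fourth is the AC tandem repeat peak with the highest −log10 q (74.8), 13143 bases from the TSS of Vtcn1, with its longest run in capitals:
AC repeat peak chr3:100812051-100812250: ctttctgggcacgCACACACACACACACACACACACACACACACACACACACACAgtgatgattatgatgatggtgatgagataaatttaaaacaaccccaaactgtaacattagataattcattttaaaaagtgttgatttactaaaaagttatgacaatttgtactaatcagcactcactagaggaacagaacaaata
Next are 2 peaks with CTCF letters, in capitals, near Fmnl3 and near Rnf144a:
Fmnl3-side peak chr15:99378991-99379190: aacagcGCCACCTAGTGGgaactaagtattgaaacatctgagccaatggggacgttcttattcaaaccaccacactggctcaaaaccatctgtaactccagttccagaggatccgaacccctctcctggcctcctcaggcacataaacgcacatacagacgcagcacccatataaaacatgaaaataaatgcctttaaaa
Rnf144a-side peak chr12:26296182-26296381: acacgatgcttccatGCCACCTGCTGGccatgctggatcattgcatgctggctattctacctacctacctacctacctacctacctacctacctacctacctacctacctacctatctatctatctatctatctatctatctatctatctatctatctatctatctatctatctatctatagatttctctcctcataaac
The last is the peak with the highest −log10 q of all, with its masked bases in capitals. Its summit lies in a short unmasked stretch between 2 masked ones:
Gm13024-side peak chr4:145361308-145361507: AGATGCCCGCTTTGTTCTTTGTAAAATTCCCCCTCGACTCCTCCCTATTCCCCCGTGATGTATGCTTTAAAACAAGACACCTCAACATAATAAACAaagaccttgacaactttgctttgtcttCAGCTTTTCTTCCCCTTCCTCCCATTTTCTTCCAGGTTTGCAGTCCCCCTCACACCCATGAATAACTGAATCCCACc

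Among the 43365 distal peaks seen only in the 50 µL list, the masked share had no gap at the cut of 50%. The number of peaks fell from 11530 with at most 10% of bases masked to 1548 with 80 to 90%, and was 2357 above 90%. In 975 of the repeat-derived peaks (9.72%) every base was masked. On either side of the cut, the 1203 peaks with 50 to 55% masked bases had a median fold enrichment of 3.05, and the 1463 peaks with 45 to 50% had 3.09. Tandem repeats were present in 23.7% of the former and 22.6% of the latter, so peaks next to the cut were alike in these values. Lower-case bases made up 33.5% of the autosomes and 30.6% of the bases in the 43365 distal 50 µL-only peaks.

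**Figure D1:**
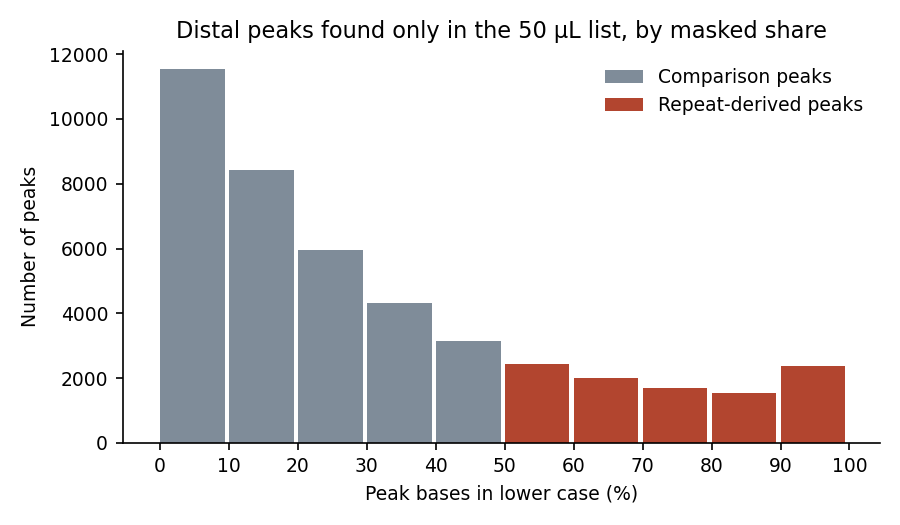
Number of distal 50 µL-only peaks (y axis) by the share of their bases in lower case (x axis, %, bins of 10 with the upper edge included). Red bars are the 10029 repeat-derived peaks and grey bars the 33336 comparison peaks, with no break between them at 50%.

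The list made without gradient centrifugation held a smaller share of such peaks. Of its 11476 distal peaks, 5.72% (5.31 to 6.17%) had more than 50% of their bases masked, against 19.6% (19.3 to 20.0%) of the 53860 distal peaks of the 50 µL list. Taking from the 50 µL list only its 11476 distal peaks with the highest −log10 q gave 10.8% (10.2 to 11.4%), which was below the share of the full 50 µL list and above that of the other list. Within the 50 µL list, 5.11% of the 10569 mostly masked distal peaks and 23.0% of the 43291 other distal peaks overlapped the other list. The share that overlapped was lower for the mostly masked peaks in each of 4 equal bins of −log10 q, from 0.435% against 3.24% in the lowest bin to 22.1% against 56.1% in the highest. These overlaps use the same measure as the selection and are given as a description. The part that read depth or debris had in the difference was not tested.

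As peaks, the repeat-derived set was much like its comparison. Fold enrichment, MACS2's ratio of reads stacked over the summit to those its background model predicts there, had a median of 3.17 (3.15 to 3.19) against 3.06 (3.06 to 3.07). The middle 50% of the repeat-derived peaks lay between 2.76 and 3.74, and that of the comparison between 2.64 and 3.66, so the 2 sets overlapped almost entirely. The median −log10 q was 10.1 in both sets. Repeat-derived peaks were a little narrower, with a median of 268 bp (266 to 270) against 284 bp (283 to 286). Their median GC content was 42.6% against 45.1%. The median distance to the nearest TSS was 12476 bp against 12182 bp, and the repeat-derived share of the peaks was 22.9% at 3 to 10 kb from a TSS, 23.2% at 10 to 30 kb, 23.5% at 30 to 100 kb and 24.0% beyond 100 kb, with overlapping intervals.

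Their place relative to genes differed. The summit lay in an intron in 54.2% (53.2 to 55.2%) of repeat-derived peaks and in 59.2% (58.6 to 59.7%) of comparison peaks. It lay in an exon in 1.44% against 4.72%, and outside genes in 44.4% against 36.1%. None of these pairs of intervals overlapped. These contrasts are tied to the selection on masked bases, whose share by place was not measured, and are given as a description. By chromosome, repeat-derived peaks made up between 21.0% (chromosome 4) and 26.9% (chromosome 10) of the distal 50 µL-only peaks, while lower-case bases made up between 30.6% and 35.8% of each chromosome.

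The summit, where the pileup was highest, lay in a masked base in 80.9% (80.1 to 81.6%) of repeat-derived peaks, and masked bases made up on average 74.8% of a peak. In the comparison the same values were 17.9% and 18.05%. The highest point of a repeat-derived peak thus lay mostly in masked bases, which the selection on masked bases favours. In peaks selected this way the mean masked share is not an expectation for the summit, and both values are given as a description. A read has a single best place only where its sequence is distinct, and words of 17 and 25 bases measure this for short reads. In the median repeat-derived peak, 18.2% (17.9 to 18.5%) of the 17-mers occurred at a single place in the genome, against 48.0% (47.9 to 48.2%) in the comparison. Reads as short as these words were kept, according to the methods, as were longer reads, for which these words are not a measure. Of the longer 25-mers, 72.6% were single-copy in the median repeat-derived peak and 100% in the median comparison peak. Both contrasts in single-copy words are tied to the selection on masked bases and are given as a description. Only 74 repeat-derived peaks (0.738%) had no single-copy 25-mer, and in 318 (3.17%) fewer than 10% of 25-mers were single-copy. One of the 74, chr8:65406047-65406293, had a fold enrichment of 6.47 and a −log10 q of 34.4 although each of its 25-mers recurred elsewhere. A mapping quality filter is not stated in the methods, so reads with several equally good places may have been kept, and their part in these peaks was not tested.

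Sequence assigned 3924 of the 10029 repeat-derived peaks to at least 1 of 3 kinds: tandem repeats, matches to the B1 copy and matches to the L1-like copy. The other 6105 (60.9%) stayed without a kind, since no repeat annotation was used here. That these kinds were more frequent than in the comparison is tied to the selection on masked bases and is given as a description. Peaks of all kinds had similar fold enrichment and differed in how distinct their sequence was.

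**Figure D2:**
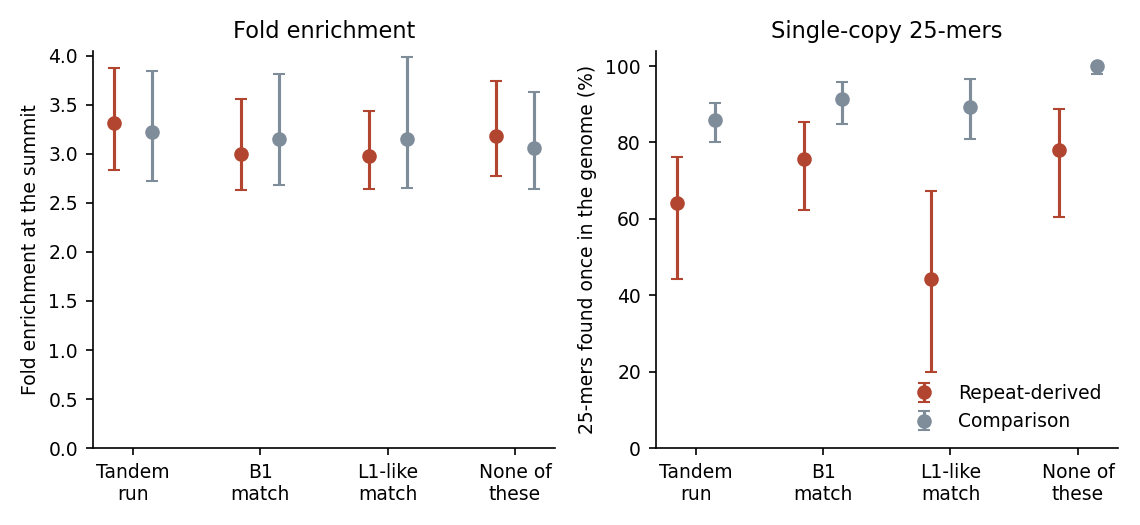
Fold enrichment (left, y axis) and percent of 25-mers found at a single place in the genome (right, y axis) by kind of sequence, for repeat-derived (red) and comparison (grey) peaks. Points are medians and bars the 25th to 75th percentiles; medians of fold enrichment all lie between 2.98 and 3.32, while single-copy 25-mers are lowest, 44.3%, in repeat-derived peaks with an L1-like match.

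Tandem repeats were the most frequent kind. At least 30 bases in perfect runs of a unit of 1 to 6 bases were found in 2439 repeat-derived peaks, 24.3% (23.5 to 25.2%), and in 7.50% (7.22 to 7.78%) of comparison peaks. The unit AC (GT on the other strand) formed the longest run in 1652 of the 2439 peaks (67.7%), followed by AG in 135 and ACAT in 84. AC runs had a median length of 38 bases and reached 91 bases, and AG runs a median of 44 and a maximum of 110 bases. Fold enrichment had a median of 3.33 (3.32 to 3.40) in AC peaks, above the 3.17 of all repeat-derived peaks. The summit itself lay in the longest run in 15.2% (13.8 to 16.7%) of the 2439 peaks, close to the 14.0% of the peak that the run occupied on average. When it lay outside, its median distance from the run was 50 bases. So the runs were part of these peaks without marking their highest point, as in the AC repeat peak near Vtcn1 shown above, which had the highest fold enrichment of all repeat-derived peaks (9.30) and a summit in an unmasked base.

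Matches to the annotated B1 copy (BLAST, E of at most 1e-05) were found in 854 repeat-derived peaks, 8.52% (7.98 to 9.08%), and in 726 comparison peaks, 2.18% (2.02 to 2.34%). The match was short relative to the peak, with a median of 87 bases of the 138 and 29.3% of the peak. Identity had a median of 82.8% and exceeded 92.2% in 10% of these peaks. The match held the summit in 229 of the 854 peaks, 26.8% (23.9 to 29.9%), and in 15.8% (13.3 to 18.7%) of the comparison peaks with a match. The summits were spread along the copy, with 29 to 44 per 20 bases over its first 100 bases. B1-matching peaks had a median fold enrichment of 3.00 (2.95 to 3.06) and lay in introns in 59.1% (55.8 to 62.5%), more often than the repeat-derived peaks as a whole. The RNA from which B1 descends, 7SL RNA, matched 116 repeat-derived peaks, BC1 RNA matched 26 and tRNA genes matched 49. For BC1 and tRNA the shares, 0.259% and 0.489%, were like those of the comparison, 0.252% and 0.507%. No peak of either set matched 7SK RNA.

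The L1-like copy was found from the peaks themselves: a peak of the second largest group of similar sequences lay in an open frame of 1300 codons between stop codons, at chr8:65405655-65409554 (+), with another frame of 379 codons ending just before it. This is the arrangement of an L1 element, whose second open frame is the long one. Matches to this copy, from 2400 bases before the long frame to 4600 bases into and past it, were found in 856 repeat-derived peaks, 8.54% (8.00 to 9.10%), and in 253 comparison peaks, 0.759% (0.669 to 0.858%). They had the least distinct sequence of the 3 kinds, with a median of 44.3% single-copy 25-mers and 54.0% of the peaks masked over more than 90% of their bases. Their median fold enrichment was 2.98 (2.93 to 3.01), their median GC content 37.6%, and 47.7% (44.3 to 51.1%) lay in introns. The match ran along the element's own strand in 447 of 856 peaks.

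The peaks were not spread evenly along the element. In bins of 200 bases, 250 repeat-derived peaks overlapped bases 1001 to 1200 of the long frame, 129 to 212 overlapped each of the other bins between bases 401 and 1400, and 9 to 67 overlapped each bin from base 1401 to base 4400. The most peaks over a single base were 212, at base 1109. Of the 657 peaks whose match held the summit, 365 had it at bases 401 to 1400, 55.6% (51.7 to 59.4%), and 36 had it in the stretch of the same length at bases 3001 to 4000. The number of copies in the genome and the number of peaks did not follow each other in a single direction. The median 25-mer occurred 7848 times in the genome at bases 401 to 1400 and 13537 times at bases 3001 to 4000. Within the frequent segment, however, bases 401 to 600 had a median of 3898.5 copies and 129 peaks, and bases 1001 to 1200 had 9640 copies and 250 peaks. Bases 1401 to 1600, with 4739.5 copies, had 67 peaks. The frequent segment lies in the part of the second frame that encodes the endonuclease and the stretch after it, upstream of codon 726, where residues of the reverse transcriptase active site were found. A smaller rise, with 141 peaks, lay in the last bin, bases 4401 to 4600, where 67 comparison peaks also matched.

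**Figure D3:**
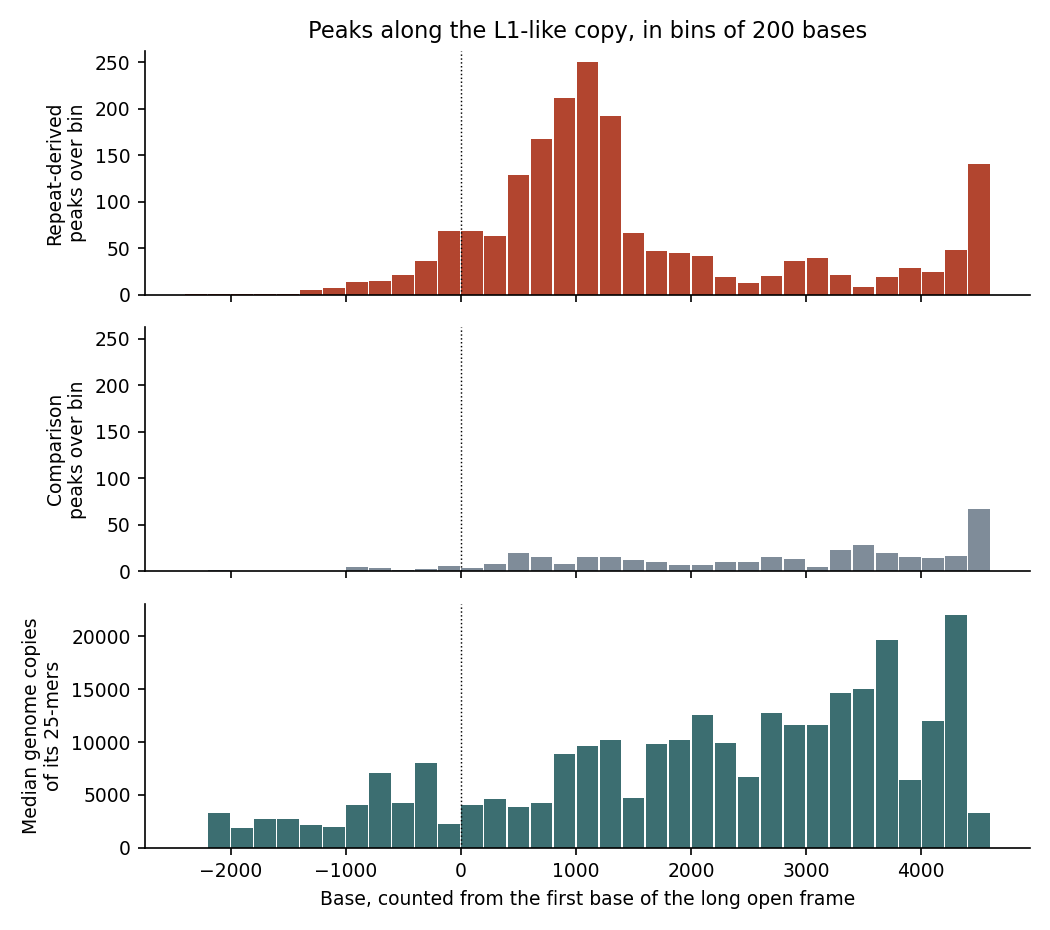
Along the L1-like copy (x axis, bases from the start of the long open frame, bins of 200), the number of repeat-derived peaks (top) and comparison peaks (middle, same scale) that overlap each bin, and the median number of genome copies of the 25-mers that start in it (bottom). Repeat-derived peaks are most frequent, 250, at bases 1001 to 1200, and the copy numbers neither rise nor fall with them throughout.

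Peaks in the frequent segment were closer copies of the reference element than those in the other 4 segments. That reference was itself chosen because it held a repeat-derived peak. The repeat-derived peak chr8:65406047-65406293, which lies in it, overlaps the frequent segment. Counts and identities in this segment are therefore given as a description. The median identity was 88.2% (middle 50% from 82.3 to 91.8%) for the 404 peaks whose best match was centred at bases 401 to 1400. It was 78.7% for 123 peaks centred before that segment, 80.8% for 108 peaks at bases 1401 to 3000, 76.6% for 70 peaks at bases 3001 to 4000 and 80.9% for 151 peaks at bases 4001 to 4600. Along the element, from its first segment to its last, the median share of single-copy 25-mers was 46.1%, 23.6%, 57.3%, 70.8% and 60.1%, lowest in the frequent segment. Median fold enrichment was 2.81, 2.98, 2.96, 3.08 and 3.15 in the same order, and GC content of the element 47.8%, 37.3%, 38.1%, 42.1% and 47.2%. The part that read placement, base composition or the choice of 1 copy as reference had in the pattern was not tested. Peaks of the list made without gradient centrifugation, whose overlaps were removed in the selection, are given as a description. Of its 657 distal peaks with more than 50% of bases masked, 90 (13.7%) matched the L1-like copy, against 8.54% of repeat-derived peaks. In 60 of these, 9.13% of the 657, a match was centred at bases 401 to 1400, against 4.06% of repeat-derived peaks. B1 matched 14.2% (11.6 to 17.1%) of these 657 peaks and tandem repeats were present in 21.2% (18.1 to 24.5%), against 8.52% and 24.3% of repeat-derived peaks. CTCF letters occurred in 5.02% (3.48 to 6.98%) of the 657, against 0.598% of repeat-derived peaks.

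Grouping the repeat-derived peaks by similarity of at least 80% over at least 60% of the shorter peak left 8345 of them (83.2%) without a partner and put 1498 (14.9%) into 26 groups of 5 or more. The groups held 748, 501, 44, 28 and 28 peaks in order of size. The second was almost wholly L1-like, with 473 of 501 peaks matching that copy. The largest joined unlike families through chains of partial matches, and only 213 of its 748 peaks matched B1. Counting instead the direct partners of a single peak, the Rasgrf1 intron peak had 300, all matching the L1-like copy, the Ddx10-side peak 117, all matching B1, and the unnamed repeat peak shown above 113. Each set was set aside before the next was sought, so later sets leave out partners that fell in earlier ones. Of the 114 peaks of that last set, 8 matched B1 and 9 a tRNA gene. Median fold enrichment in these 3 sets was 3.01, 2.86 and 3.32. The B box letters GTTCNANNC occurred on either strand in 82 of 114 peaks of the unnamed set, 71.9% (62.7 to 79.9%), in 59.3% (49.9 to 68.3%) of the B1 set and in 0.997% (0.206 to 2.88%) of the L1-like set. The first 2 sets were gathered around a peak that itself carries the letters. In all 854 peaks with a B1 match they occurred in 35.7% (32.5 to 39.0%), in the 856 with an L1-like match in 6.19% (4.67 to 8.02%) and in the fourth largest set of direct partners, of 78 peaks, in 12.8% (6.32 to 22.3%). In all repeat-derived peaks they occurred in 10.8%, in the comparison in 11.1% and in all autosomal 50 µL peaks in 14.5%, so these letters were frequent in the B1-matching peaks and in the unnamed set, and not in the repeat-derived peaks as a whole. Peaks at the centre of the third, the fourth and the fifth largest groups lay in an intron of 1700029J07Rik, an intron of Cd200r3 and an exon of Itga4, with fold enrichments of 3.92, 3.71 and 2.49.

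Letters of transcription factor binding sites were less frequent at repeat-derived summits than at comparison summits. Letters of 12 motifs were searched on both strands in the 200 bp around the summit. For factors that shape blood cells these were GAGGAAGT for PU.1, TGTGGTT for RUNX factors, CCGGAAGT for other ETS factors, AGATAAG for GATA factors, ATGCAAAT for octamer factors and CCCNNGGGA for EBF. For factors that respond to signals they were TGANTCA for AP-1, GAAANNGAA for IRF and TTCCNGGAA for STAT. CAGCTG stood for an E-box, AAGATGGC for YY1, and CTCF was searched by its consensus. Each of the 12 occurred at a lower share of repeat-derived summits, with intervals that did not overlap those of the comparison. These contrasts are tied to the selection on masked bases and are given as a description. CTCF, the insulator protein, had letters in 60 repeat-derived windows, 0.598% (0.457 to 0.769%), in 2.07% (1.92 to 2.23%) of comparison windows and in 2.68% of all autosomal 50 µL peaks. PU.1, the product of Spi1 and a regulator of myeloid and B cells, had 2.63% (2.33 to 2.97%) against 4.05% (3.84 to 4.27%). RUNX letters differed least in relative size, with 6.05% (5.59 to 6.54%) against 7.02% (6.75 to 7.30%), and E-box letters most, after CTCF, with 3.03% (2.70 to 3.39%) against 9.47% (9.16 to 9.79%). Restricted to summit windows more than 50% masked, 9057 repeat-derived and 1864 comparison windows remained. Only CTCF, AP-1, GATA, E-box and IRF letters were then lower without overlap of intervals. For the others the intervals overlapped, and RUNX letters occurred in 6.02% (5.54 to 6.53%) against 5.90% (4.87 to 7.07%).

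The windows 2 kb downstream of the same summits give the share outside the peaks. CTCF letters occurred there in 0.170% (0.099 to 0.271%), PU.1 letters in 1.14% (0.939 to 1.36%) and RUNX letters in 4.90% (4.48 to 5.34%), each below the share at the repeat-derived summits with intervals that did not overlap. Letters of 6 motifs went the other way, also with intervals that did not overlap. E-box, AP-1, GATA and EBF letters occurred in 8.55%, 5.37%, 2.52% and 2.303% at 2 kb and in 3.03%, 3.28%, 1.35% and 0.967% at the summit, and YY1 and STAT letters in 1.66% and 0.479% at 2 kb and in 0.708% and 0.229% at the summit. For octamer, IRF and ETS letters the intervals of both places overlapped. Restricting both places to windows that were themselves more than 50% masked left 9057 summit windows and 2812 windows 2 kb away. CTCF letters then occurred in 0.530% (0.391 to 0.702%) against 0.142% (0.0388 to 0.364%) and PU.1 letters in 2.59% (2.28 to 2.94%) against 0.889% (0.576 to 1.31%). For RUNX the order turned, with 6.02% (5.54 to 6.53%) at masked summits against 6.93% (6.02 to 7.94%), and the intervals overlapped. Letters of 4 motifs were lower at masked summits with intervals that did not overlap. YY1 letters had the widest relative gap, 0.674% (0.516 to 0.864%) against 2.67% (2.104 to 3.33%), followed by the E-box with 2.62% against 5.94%, octamer letters with 0.850% against 1.56% and GATA letters with 1.23% against 2.098%. For AP-1, EBF, IRF, STAT and ETS letters the intervals overlapped. Thus CTCF and PU.1 letters were more frequent in mostly masked windows at repeat-derived summits than in such windows nearby. The other motifs were not shown to be. Such windows also hold unmasked bases, and CTCF letters lay in masked bases in 25 of 60 peaks. In peaks masked over more than 75% and 90% of their bases, CTCF letters occurred in 0.318% and 0.0849%. Whether the repeats themselves carry more CTCF or PU.1 letters was therefore not shown.

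**Figure D4:**
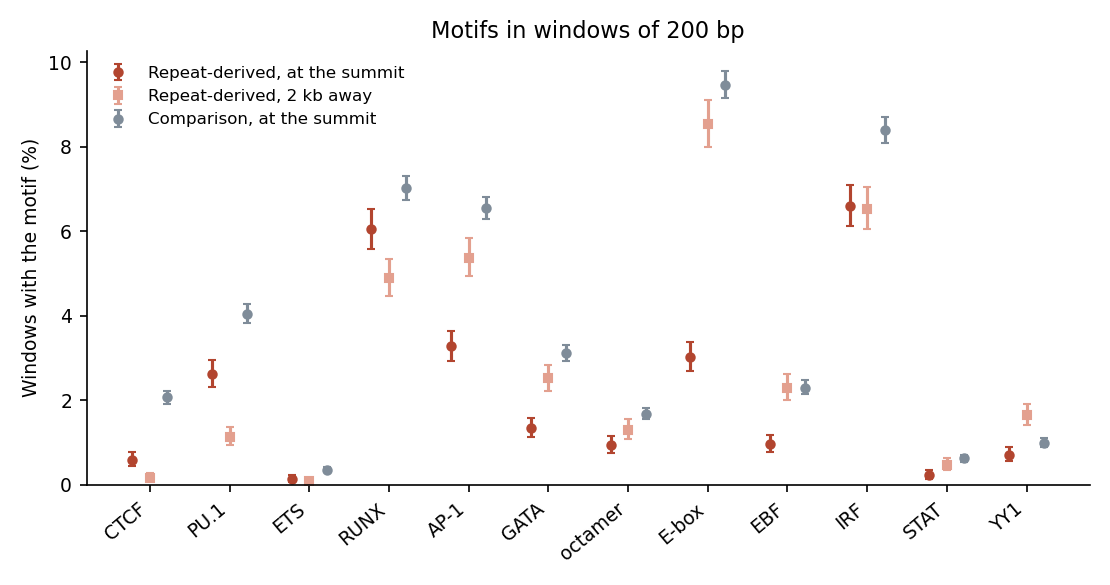
Share of 200 bp windows (y axis, %) with each motif (x axis) around repeat-derived summits (dark red circles), 2 kb from them (light red squares) and around comparison summits (grey circles), with exact 95% intervals. CTCF and PU.1 lie above the windows 2 kb away and below the comparison, and the E-box is lower at repeat-derived summits, 3.03%, than in either other set.

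The 60 peaks with CTCF letters had a median fold enrichment of 3.73, against 3.17 for those without. Comparison peaks had 3.91 with the letters and 3.06 without, so this was not particular to repeat-derived peaks. The letters themselves were masked in 25 of the 60, 41.7% (29.1 to 55.1%), and in the others the site lay mostly in unmasked bases of the peak. In the comparison the letters were masked in 8.12% (6.19 to 10.4%) of 690 peaks. B1 matched 17 of the 60 peaks and the L1-like copy 7. The 5 with the highest −log10 q were the Fmnl3-side peak (fold enrichment 7.79, −log10 q 73.2), a peak in an intron of Dcp2 (6.82, 51.7), the Rnf144a-side peak (6.72, 36.9), which also held 287 bases of tandem repeat, a peak 8113 bases from the TSS of Rhot1 (5.53, 32.0) and one 10354 bases from that of Gm38173 (5.96, 29.5).

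The highest values in the set were spread over all 3 kinds and over peaks without a kind. The 10 peaks with the highest −log10 q lay between 62.2 and 92.0. They were the peak at chr4:145360938-145361594, 29349 bases from the TSS of Gm13024 (fold enrichment 9.07), the peak near Vtcn1, peaks in introns of Commd10 (8.33), Gm8189 (9.28), Extl3 (5.44) and Pxk (7.02), and peaks outside genes nearest to Fmnl3 (7.79), Gm18907 (7.35), Gm25371 (5.51) and Scarb2 (6.26). In 4 of the 10 the summit lay in an unmasked base. Of the 10, 4 held a tandem run, 2 a B1 match and 1 an L1-like match. By fold enrichment the first 5 were the peaks near Vtcn1 (9.30), in Gm8189 (9.28), in an intron of Dock6 (9.11), near Gm13024 (9.07) and in Commd10 (8.33).

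Lymphocyte genes were dense in repeat-derived peaks, as they were in other distal peaks. Among lists of marker genes, the 24 autosomal B cell genes held 50 repeat-derived peaks, 20.4 per Mb of gene body, and the 26 T cell genes held 20, or 10.6 per Mb. All 20807 autosomal protein-coding genes held 5.07 per Mb, counting a peak in each gene whose body holds it, and the 20 neuronal genes, most of them long, held 0.367 per Mb. The comparison peaks had the same order, with 98.3, 63.6, 19.8 and 0.330 per Mb. The 26 myeloid genes departed from it, with 15.8 repeat-derived and 10.5 comparison peaks per Mb.

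The share of distal peaks that were repeat-derived did not follow the density. It was 17.2% (13.0 to 22.0%) in B cell genes, 14.3% (8.95 to 21.2%) in T cell genes and 20.4% (19.9 to 20.9%) in all protein-coding genes. In the neuronal genes 10 of 19 peaks were repeat-derived, 52.6% (28.9 to 75.6%), and in the myeloid genes 9 of 15, 60% (32.3 to 83.7%). Both intervals lay above the share of all genes, but they treat peaks of the same gene as independent. The 9 myeloid peaks lay in only 4 genes and the 10 neuronal peaks in 8, so these intervals may be too narrow. Across all protein-coding genes, those with a promoter peak in the 50 µL list held 7.46 repeat-derived and 30.1 comparison peaks per Mb, and those without held 1.69 and 5.22. The repeat-derived share was 19.9% (19.4 to 20.4%) in the 12038 genes with a promoter peak, 24.5% (22.9 to 26.1%) in the 8769 without and 27.0% (26.3 to 27.7%) for summits outside genes. Repeat-derived peaks were thus fewer in genes without a promoter peak, but not as much fewer as the comparison peaks.

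**Figure D5:**
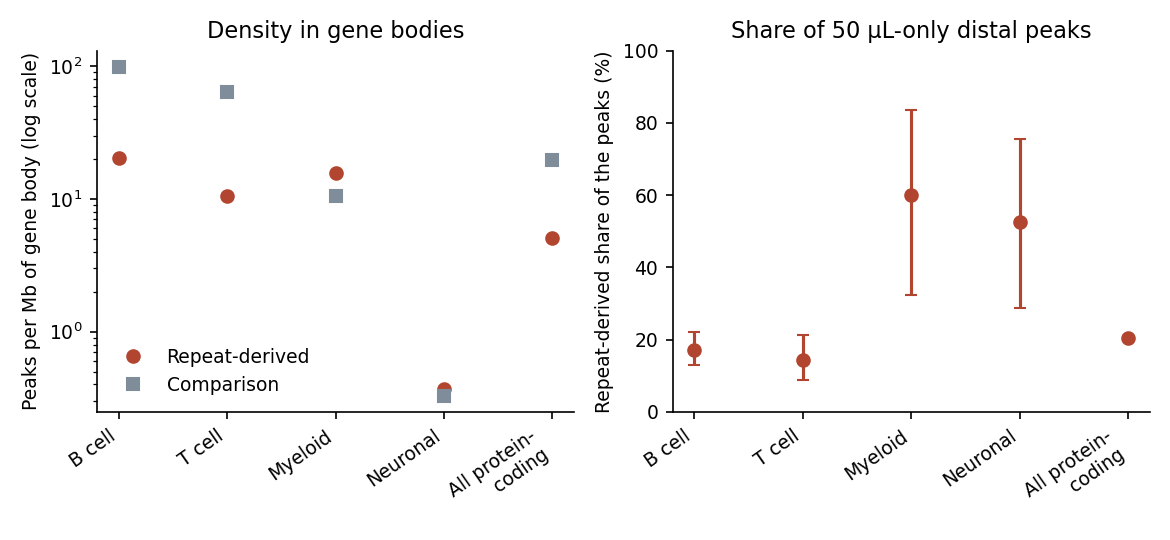
Peaks per Mb of gene body (left, log scale) for repeat-derived (red circles) and comparison (grey squares) peaks, and the repeat-derived share of both together (right, %, exact 95% intervals), in 4 gene lists and in all autosomal protein-coding genes. Density is highest in B cell genes and lowest in neuronal genes, whereas the share is highest in the myeloid and neuronal lists, which rest on 15 and 19 peaks.

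Of the B cell genes, Bank1, which encodes a scaffold of B cell receptor signalling, held the most repeat-derived peaks, 11, beside 26 comparison peaks. Foxp1, Bach2 and Ebf1, transcription factors of B cells, held 7, 5 and 5 beside 74, 41 and 37. By −log10 q, the first repeat-derived peak in a B cell gene lay in an intron of Syk, the kinase next to the B cell receptor, with a fold enrichment of 4.22, a −log10 q of 42.4 and a run of 59 bases of AG repeat. One in an exon of Pax5, which sets B cell identity, had a higher fold enrichment, 5.31, and a lower −log10 q, 32.6. Of the T cell genes, Skap1 held 4 repeat-derived peaks, and the peak with the highest −log10 q lay in Themis, which acts in thymocyte selection, with a fold enrichment of 6.77, a −log10 q of 39.8 and 28.9% single-copy 25-mers. Lef1, a transcription factor of T cells, held 1, with a fold enrichment of 3.41, beside 16 comparison peaks.

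In the myeloid list, Itgam and Mertk, a surface integrin and a receptor for the uptake of dying cells, held 3 repeat-derived peaks each, Spi1 held 2 and Adgre1, the gene of the F4/80 macrophage antigen, held 1. The peak with the highest −log10 q among them was in Itgam, in sequence that matched B1, with a fold enrichment of 4.28 and a −log10 q of 24.4. The peak in Adgre1 had a higher fold enrichment, 5.28, with a −log10 q of 23.4 and a run of 42 bases of AC repeat. In the neuronal list Ptprd and Cdh13 held 2 each. The neuronal peak with the highest −log10 q, in Cntn4, was masked over its whole length, with 145 bases of tandem repeat, a fold enrichment of 4.94 and a −log10 q of 20.5. Of all protein-coding gene models, Gm20388 held the most repeat-derived peaks, 46, over 4435 kb of chromosome 8 in which other genes such as Gse1 lie. Arhgap15 followed with 17, and Fgfr2 and Inpp4b with 16 each, then Snx29 with 15. The Fgfr2 model is also long, 2961 kb, and held 5.40 per Mb, near the 5.07 of all protein-coding genes. Arhgap15, Inpp4b and Snx29 held 26.3, 20.4 and 34.7 per Mb.

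Few repeat-derived peaks met an element that RefSeq lists as regulatory. An overlap was found for 12 of 10029, 0.120% (0.0618 to 0.209%), each with an element listed as an enhancer, and for 134 comparison peaks, 0.402% (0.337 to 0.476%). The highest values among them belonged to chr17:47989338-47989738, with a fold enrichment of 6.77 and a −log10 q of 45.2, and to chr11:16558549-16559046, with 5.62 and 36.3. Another, at chr11:98498254-98498518, lay in Ikzf3, a B cell transcription factor gene, with 2.23 and 8.13. These 3 were chosen after their values were seen. The median distance from a repeat-derived summit to the nearest other repeat-derived summit was 29715 bp, and 2387 of them (23.8%) lay within 10 kb of another.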

How the data were processed

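The authors aligned reads to mm10 with BWA, removed duplicates and called peaks in each library separately with MACS2, with no mapping quality filter stated, and removed blacklisted regions. The deposited files are MACS2 narrow peak lists. Their fold enrichment is a ratio deposited by the authors, and their −log10 p-value and q-value columns are −log10 values deposited by the authors. The display score deposited by the authors was not used. A marker gene that was looked at is not reported here. Read totals of these 2 libraries were not given in the sources used here.

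Distances were taken from GENCODE vM21, and lower case from the RefSeq GRCm38.p6 sequence, whose masking tool is not named. The annotated B1_Mus2 copy was 94.9% lower case and 2 annotated AmnSINE1 copies 0%, so lower case does not cover every repeat. 17-mers and 25-mers were counted over the reference chromosomes and scaffolds of C57BL/6J. BLAST+ 2.17.0 searched peaks against RefSeq RNA genes and annotated elements (word size 7) and against each other (word size 16, E 1e-10, low complexity masked). Python 3.11.15, numpy 2.4.6, pandas 2.3.3 and scipy 1.17.1 were used, and the scripts for runs, motifs and k-mers were tested on simulated data. Shares carry exact Clopper-Pearson intervals and medians order-statistic intervals.

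The peaks, motifs and gene lists were chosen with earlier results of these data known. Named peaks are the 10 with the highest −log10 q, the 5 with the highest fold enrichment, the 5 with CTCF letters and the highest −log10 q, the centres of the 5 largest similarity groups, up to 5 per gene list and the 5 genes with most peaks. Alternatives changed the masked share, the TSS distance, the gap to the other list, the peak thresholds, the motif window, the word length, the tandem criterion and the group identity. The L1-like copy, direct partners, promoter state, B box, masked windows and 2 kb windows were added after seeing the data.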

Additional observations from a re-analysis of the deposited data

How the results depend on the processing

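No paired analysis was possible because each condition had 1 library. In 100 recomputed values for the repeat-derived peaks, 40 were counted as staying, 59 as moving and 1 changed its order against the comparison. Values with an interval stayed if they lay within that of the reported value. Numbers of peaks carry no interval, and 9486 and 9240 were counted as staying near 10029. With at least 4-fold enrichment, the median fold enrichment was 4.51 in 1730 repeat-derived peaks and 4.63 in the comparison, so that the higher set changed. In those peaks the repeat-derived share was 24.2%, −log10 q 20.9, width 330 bp, summit masked 85.3%, introns 49.8%, GC 42.2%, single-copy 17-mers 16.3%, tandem repeats 29.7% and CTCF letters 1.21%. With a masked share over 75%, 4716 peaks (10.9%) had fold enrichment 3.23, width 275 bp, summit masked 94.1%, introns 51.0%, GC 41.8%, single-copy 17-mers 9.64% and CTCF letters 0.318%. Over 90%, 2357 peaks (5.44%) had 3.20, −log10 q 9.38, 271 bp, 98.0%, introns 47.8%, GC 41%, 17-mers 4.74%, tandem repeats 22.1% and CTCF letters 0.0849%. Beyond 10 kb from a TSS, 5913 peaks had fold enrichment 3.20, summit masked 82.1%, introns 50.2%, GC 42.2%, 17-mers 17.6% and tandem repeats 25.2%. Fold enrichment was 3.20 with no peak of the other list within 1 kb, and 3.24 with −log10 q 10.7 where −log10 q exceeded 5.

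In windows of 100 bp, letters occurred in 0.219% (CTCF), 1.13% (PU.1), 0.0499% (ETS), 3.33% (RUNX), 1.38% (AP-1), 0.668% (GATA), 0.489% (octamer), 1.30% (E-box), 0.289% (EBF), 3.39% (IRF), 0.0798% (STAT) and 0.289% (YY1) of repeat-derived summits, each lower than in the comparison. For RUNX, however, the comparison value of 3.51% lay within the interval of the repeat-derived share (2.99 to 3.70%). Of 25-mers 72.6% were single-copy, against 18.2% of 17-mers. Runs filled at least 50% of the peak in 0.618%. At 90% identity, 424 peaks were in groups of 5 or more, against 1498 at 80%. Without peaks that hold tandem runs, an alternative chosen after seeing the data, −log10 q was 9.73, width 265 bp, GC 42.2% and IRF letters 7.21%. RUNX letters then occurred in 6.44% (5.90 to 7.02%) against 7.06% of the comparison, and YY1 letters in 0.791% (0.604 to 1.02%) against 1.03%. Depth is unknown, so no limit of detection can be given.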
